A study of Mus musculus with 12 samples.

Results

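The 41 genes described here are listed interferon signalling and interferon-induced genes, taken by gene name from a table of read counts per gene. All 41 were among the 55137 gene identifiers of the table. The RNA came from the mouse rectal epithelial line CMT-93, in 4 groups of 3 libraries. The control group had neither treatment. The PTSO group received PTSO, an organosulfur compound of garlic, at 20 µM. The T. muris group received antigens of Trichuris muris, the mouse whipworm, at 100 µg/mL. In the PTSO + T. muris group the compound came 30 minutes ahead of the antigens. The protocol gives a vehicle control and a harvest after 6 hours for the series, and it does not say which groups received the vehicle. The series title names LPS, and the groups follow the sample labels. All groups share the single cell line, and no label ties the libraries to separate cultures, so the p-values measure only the spread between these libraries, which may be technical.

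Interferons are secreted proteins that bind paired receptors on the cell surface and act through JAK kinases. Type I and type III interferons lead to a complex with STAT2 and IRF9 that binds the interferon-stimulated response element (ISRE), and interferon gamma acts through the gamma-activated site (GAS). The genes switched on in this way encode sensors of viral nucleic acid, enzymes and GTPases that block viral growth, and regulators that amplify or end the response, and many of them keep a basal level in epithelial cells.

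The listed genes held these promoter letters in the following shares. RefSeq promoters on GRCm38.p6, from 250 bases before to 50 bases after a gene's start, were at hand for 32 of the 41 genes. The letters GAAANNGAAA, read on both strands as the core of an ISRE, were present in 14 of these 32 genes (43.8%), against 1079 of 27025 genes in the promoter table (3.99%). The letters TTCNNNGAA, the core of a GAS, were present in 7 of 32 (21.9%), against 9.55% of all genes. The stretches below show 2 genes with the letters in typical places upstream of the start, Isg15 (37 to 99 counts per library) and Ifit1 (2 to 16). They also show the listed gene called in most comparisons (Ddx58), and the regulator that was lower with PTSO over both backgrounds (Irf1). Each is written 5′ to 3′ on the gene's strand, with the matching letters in capitals; adjoining matches run together in Isg15.
Isg15, GRCm38.p6, chr4:156200860-156200911, minus strand, ISRE letters: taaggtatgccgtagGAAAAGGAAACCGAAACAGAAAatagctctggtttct
Ifit1, GRCm38.p6, chr19:34640770-34640828, plus strand, ISRE letters: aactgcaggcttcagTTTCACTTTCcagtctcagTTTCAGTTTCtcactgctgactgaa
Ddx58, GRCm38.p6, chr4:40239799-40239838, minus strand, ISRE letters: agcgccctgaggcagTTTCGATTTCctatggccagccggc
Irf1, GRCm38.p6, chr11:53769909-53769947, plus strand, GAS letters: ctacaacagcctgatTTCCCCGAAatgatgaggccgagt

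The first of the Ddx58 letters stood at base 3 of the transcribed part, and those of Irf1 began 90 bases before the start. Samd9l, the other gene called in all 3 comparisons with control, held neither set of letters in its window. A match of letters is a description of the sequence and not a binding site.

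Total counts were 16.7 to 34.5 M per library, and the 41 genes took 0.074% to 0.089% of them. Control library 2 (-35.4) and control library 3 (-41.5) lay far from the rest on the first principal component, which held 19.6% of the variance. Control library 1 was at -3.58, and the 9 treated libraries ran from 0.929 to 23. The labels give no reason for this. Each gene of the interferon lists called against control is given below with and without control libraries 2 and 3, or counted without them. The epithelial markers Krt8 and Krt18 were abundant, with means of 2910 and 2210 CPM (counts scaled to library size, with TMM factors), and the 9 epithelial markers summed to 8250 to 8910 CPM in every library, although the intestinal markers Krt20 (0.503 CPM), Vil1 (3.6 CPM) and Cdx2 (0.864 CPM) were low. The 12 leukocyte markers summed to 3.28 to 6.33 CPM. Most of this was Cd68 (mean 4.02 CPM), which passed the filter, as did Csf1r (mean 0.507 CPM). Ptprc had 11 counts over all libraries, and Tyrobp and Siglech were at 0. The 6 fibroblast markers summed to 2.3 to 4.64 CPM, with Col1a1 at a mean of 2.44 CPM, Pdgfra at 0.945, Col1a2 at 0.409, and Col3a1, Dcn and Lum at 0. The 5 endothelial markers summed to 2.6 to 4.99 CPM, most of it Tek (mean 3.15 CPM).

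CMT-93 cells expressed many of the listed genes without added interferon, and the levels divided by role only in part. The oligoadenylate synthetase genes had 0.00339 to 0.271 CPM per kilobase of exon. The genes of the ubiquitin, ISG15 and ADP-ribosylation group all lay above them, at 1.49 to 23. The antiviral effectors held both high and low genes. Bst2, an antiviral effector, was among the highest, and several other classical effectors had hardly any transcript. Among the regulators and sensors, Irf7 (mean 1.22 CPM) and Dhx58 (mean 1.49 CPM) were low. Every one of the 41 genes had at least 1 count, and 34 passed the filter on low counts. Per kilobase of exon, the highest levels were those of Bst2, which tethers budding virus to the cell, at 34.2 CPM per kb. Trim25, a ubiquitin ligase that acts on RIG-I, followed at 23 CPM per kb, Irf1 at 17.3 and Ifi27 at 16.7. The median over the 34 genes was 2.98 CPM per kb, against 5.83 for the 14840 genes past the filter with a known length. Isg15, the ubiquitin-like modifier, lay near that median at 2.91 CPM per kb. The lowest level among the 34 was that of the dynamin-like GTPase Mx2 at 0.0867 CPM per kb.

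The 7 genes that did not pass the filter were Ifit1, Oas2, Rsad2, Ifi44, Cmpk2, Gbp3 and Sp100. Ifit1, which binds viral RNA, had 74 counts over 12 libraries. It had 12, 16 and 6 counts in the control libraries, 8, 5 and 7 with PTSO, 4, 3 and 3 with T. muris, and 3, 5 and 2 with both. Oas2, a synthetase of the 2-5A messenger of RNase L, had 4 counts in all. Rsad2, known as viperin, had 29 counts, and its neighbour in function Cmpk2, a mitochondrial nucleotide kinase, had 22. Ifi44 had 31 counts, the guanylate-binding protein gene Gbp3 63 and the nuclear body gene Sp100 62. No library held more than 16 counts of any of these, and they were not tested.

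**Figure D1:**
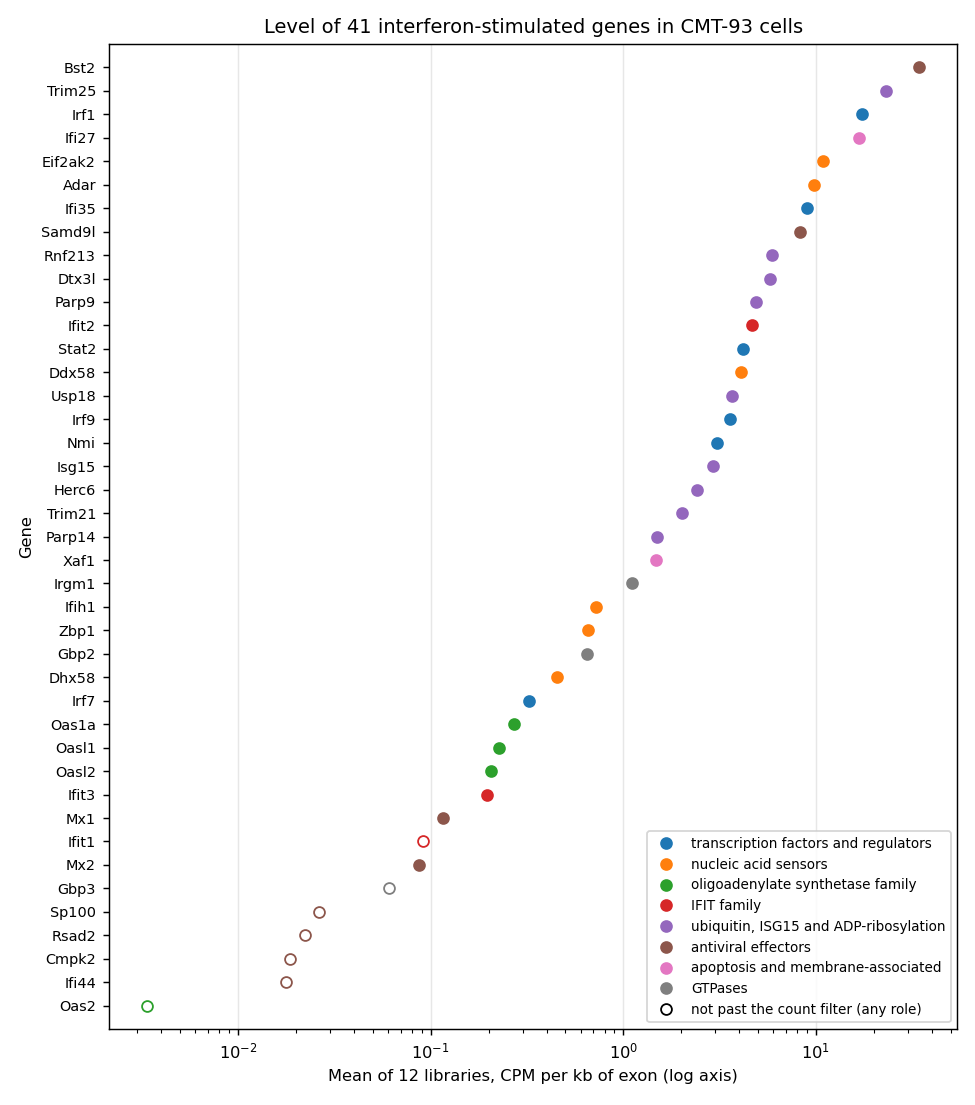
Mean level of each of the 41 genes over 12 libraries in CPM per kb of exon on a log axis, with the colour giving the role and open circles the 7 genes that did not pass the count filter. Bst2 lies highest at 34.2 CPM per kb and Oas2 lowest at 0.00339.

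Within the STAT and IRF group, Irf1 had the highest level per kilobase, and Stat2 and Irf9, which act in the same complex, had 4.19 and 3.57 CPM per kb. Irf7, the amplifier of type I interferon production, had 0.324 CPM per kb. Among the sensors, Eif2ak2 (PKR) and Adar, an RNA editor, had 10.9 and 9.73 CPM per kb, Ddx58 (RIG-I) had 4.08, Ifih1 (MDA5) had 0.72 and Dhx58 (LGP2) 0.455. The oligoadenylate synthetase family was low throughout, with Oas1a, Oasl1 and Oasl2 between 0.205 and 0.271 CPM per kb. Ifit2 had 4.66 CPM per kb, while Ifit3 of the same family had 0.197. Members of the Oas, Ifit, Gbp and Mx families resemble their neighbours in sequence, and how the authors' counting shared reads between such copies, and between strands, is not given in the sources used here.

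PTSO against control asks what the compound did alone. RIG-I and SAMD9L transcripts fell, and no listed gene rose past the threshold in the edgeR test with the filter on low counts. Ddx58 (ENSMUSG00000040296), the cytosolic sensor of viral RNA ends, had 29.6, 37.6 and 41.3 CPM in the control libraries and 26.8, 25.8 and 26.7 CPM with PTSO. All 3 PTSO libraries were below all 3 control libraries, and control library 1 was nearest to them. The log2 fold change was -0.45 ± 0.101 (SE), a ratio of 0.730, with adjusted p = 0.0141 in edgeR's quasi-likelihood test with Benjamini-Hochberg adjustment over 15267 genes. Samd9l (ENSMUSG00000047735), an antiviral factor that restricts poxviruses, had 45.1, 54.9 and 63.5 CPM in control and 44.6, 39.8 and 39.3 CPM with PTSO. Control library 1 was only just above the highest PTSO library. The log2 fold change was -0.40 ± 0.0997 with adjusted p = 0.0264.

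In RNA from whole cultures, fewer cells that express a gene and less of its RNA per cell cannot be told apart. These 2 of 34 tested genes were called (adjusted p under 0.05, the call rule throughout), both lower. That share was close to the 5.25% called among all genes tested. The libraries of the groups did not overlap for 5 of the 34, all lower with PTSO, against 10.2% of all genes lower in this way. Log2 fold changes were below 0 for 30 of 34 (88.2%), with a median of -0.20, against 49.6% and a median of 0 over all genes. At an unadjusted p under 0.05 there were 10, all lower. Ifi27 (-0.32 ± 0.102, adjusted p = 0.066), an interferon-induced membrane protein, missed the threshold in edgeR and passed it in DESeq2 (adjusted p = 0.0336); without control libraries 2 and 3 it was at -0.12 (edgeR adjusted p = 0.902). Zbp1, a sensor of Z-form nucleic acid that starts necroptosis, was at 3.09, 1.83 and 3.57 CPM in control and 1.53, 1.21 and 1.71 CPM with PTSO (-0.94 ± 0.313, adjusted p = 0.0792 in edgeR and 0.0398 in DESeq2).

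The calls were lost without control libraries 2 and 3. With both left out, Ddx58 was at -0.17 (adjusted p = 0.817) and Samd9l at -0.13 (adjusted p = 0.855), no listed gene was called by edgeR, 2 had an unadjusted p under 0.05, and 23 of 34 were below 0 with a median of -0.06. Leaving out any of control library 2, control library 3, PTSO library 2 or PTSO library 3 alone also ended both calls, with adjusted p = 0.0769, 0.095, 0.0794 and 0.0534 for Ddx58 and 0.105, 0.147, 0.135 and 0.109 for Samd9l. Without control library 1, 9 of 34 were called, all lower, in a fit that called 23.1% of all genes.

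**Figure D2:**
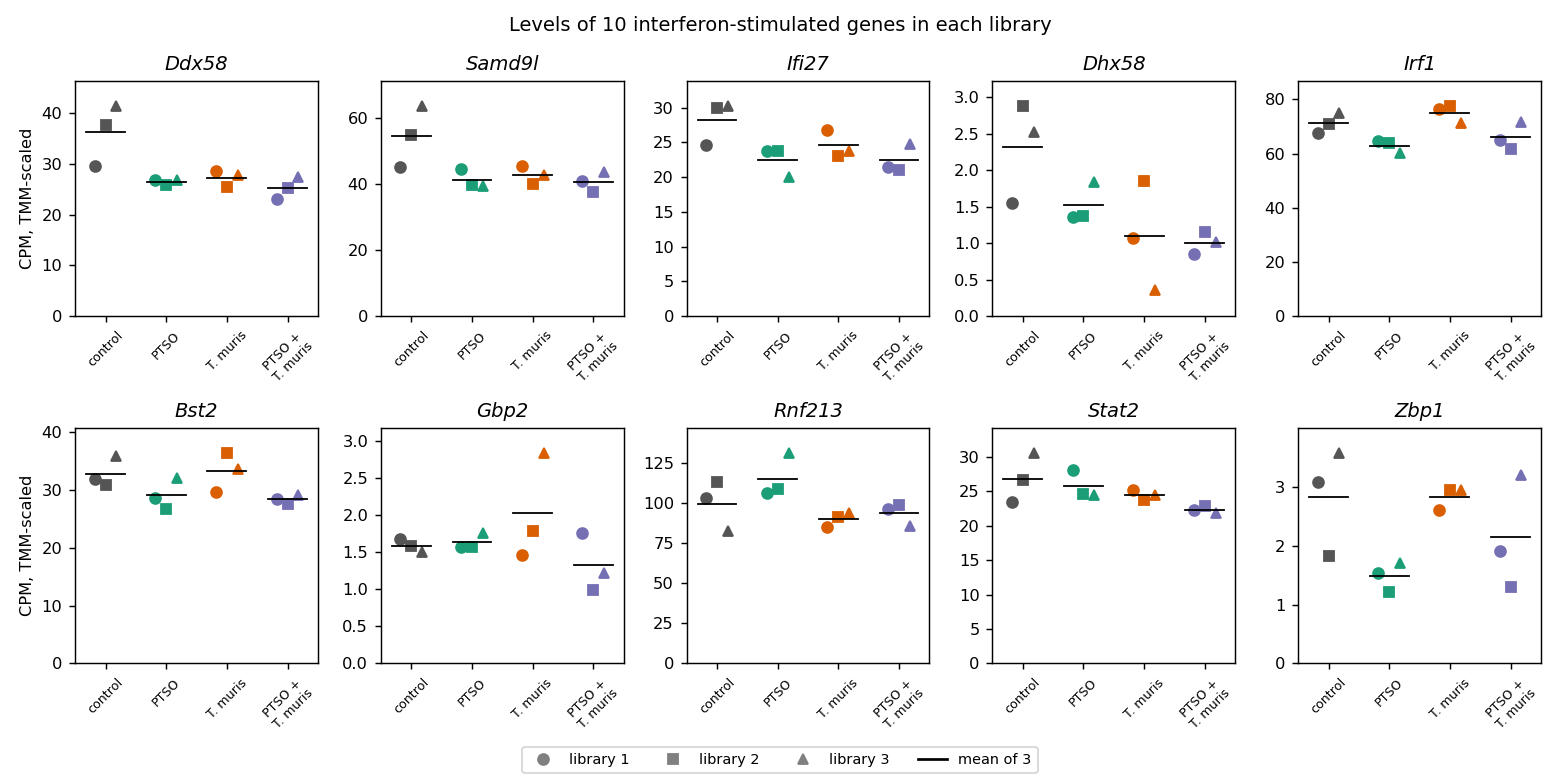
CPM of 10 genes in each library, with symbols for libraries 1 to 3 of a group and a bar for the group mean; every axis starts at 0. Control libraries 2 and 3 are the highest of the 12 for Ddx58 (37.6 and 41.3 CPM) and Samd9l (54.9 and 63.5 CPM), while control library 1 (29.6 and 45.1 CPM) lies close to the treated libraries.

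T. muris against control asks what the antigens did alone, and it uses the same control libraries. No listed gene rose past the threshold after the antigens, and the same 2 genes as above fell. Ddx58 had 28.5, 25.4 and 27.8 CPM with the antigens, all below the control libraries, and a log2 fold change of -0.41 ± 0.102 (edgeR adjusted p = 0.0269). Samd9l had 45.3, 39.9 and 42.8 CPM, overlapping the control libraries at control library 1, and a log2 fold change of -0.35 (adjusted p = 0.0441). Across all genes tested 6.35% were called, a share close to that of these 2 among the 34. The libraries did not overlap for 5 of 34 lower genes, against 11.7% of all genes. Of the 34, 25 were below 0, with a median of -0.10. Xaf1, a proapoptotic partner of XIAP, had 5.75, 6.17 and 6.6 CPM in control and 8, 8.31 and 7.71 CPM with the antigens. Its groups did not overlap, and its log2 fold change of 0.38 ± 0.155 had adjusted p = 0.133. Dhx58, a relative of RIG-I, ranged from 0.361 to 1.86 CPM with the antigens and from 1.55 to 2.88 CPM in control (-1.03 ± 0.391, adjusted p = 0.105), and without control libraries 2 and 3 it was at -0.44 (adjusted p = 0.998). Isg15 was at -0.58 ± 0.271 (adjusted p = 0.188).

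Without control libraries 2 and 3, Ddx58 was at -0.12 and Samd9l at -0.08 (adjusted p = 0.998 for each in edgeR), 15 of 34 genes were below 0 and the median was 0.01. The Ddx58 call also ended without control library 2 or 3 or any 1 of the 3 T. muris libraries, with adjusted p between 0.0757 and 0.152. The Samd9l call held in only 1 of the 12 fits that left out a single library, that without control library 1.

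With both treatments against control, 4 of 34 genes were called, all lower, a smaller share than the 16.7% called among all genes. Ddx58 had 23.1, 25.3 and 27.3 CPM with both treatments, a log2 fold change of -0.52 ± 0.102 (adjusted p = 0.00248 in edgeR). Samd9l had 41, 37.7 and 43.6 CPM (-0.42, adjusted p = 0.00929). For both genes each treated library was below each control library.

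Ifi27 (ENSMUSG00000064215) had 24.6, 30 and 30.2 CPM in control and 21.5, 21.1 and 24.8 CPM with both treatments (-0.33 ± 0.103, adjusted p = 0.0312). Its highest treated library overlapped control library 1. Dhx58 (ENSMUSG00000017830) had 1.55, 2.88 and 2.53 CPM in control and 0.858, 1.15 and 1.02 CPM with both (-1.20 ± 0.398, adjusted p = 0.0434), with no overlap. Isg15 (-0.79 ± 0.274, adjusted p = 0.0528) and Parp14, an ADP-ribosyltransferase (-0.44 ± 0.151, adjusted p = 0.0512), were just outside the threshold in edgeR, and DESeq2 called both (adjusted p = 0.0337 and 0.0293). The libraries did not overlap for 12 of 34 genes, all lower, against 14.9% of all genes lower in this way. Below 0 were 31 of 34, with a median of -0.22.

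Ddx58 kept its call in this comparison in each of the 12 fits that left out a single library, with log2 fold changes from -0.65 to -0.41 and adjusted p up to 0.0231. Without control libraries 2 and 3 together it was at -0.23 with adjusted p = 0.537, Samd9l at -0.15, Ifi27 at -0.13 and Dhx58 at -0.62, and none of the 34 was called. Samd9l lost its call without control library 3 or PTSO + T. muris library 2 (adjusted p = 0.055 and 0.0531). Ifi27 lost it without control library 2 or 3 or PTSO + T. muris library 1 or 2 (adjusted p = 0.121 to 0.138). Dhx58 lost it in 9 of the 12 such fits, with adjusted p up to 0.177.

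**Figure D3:**
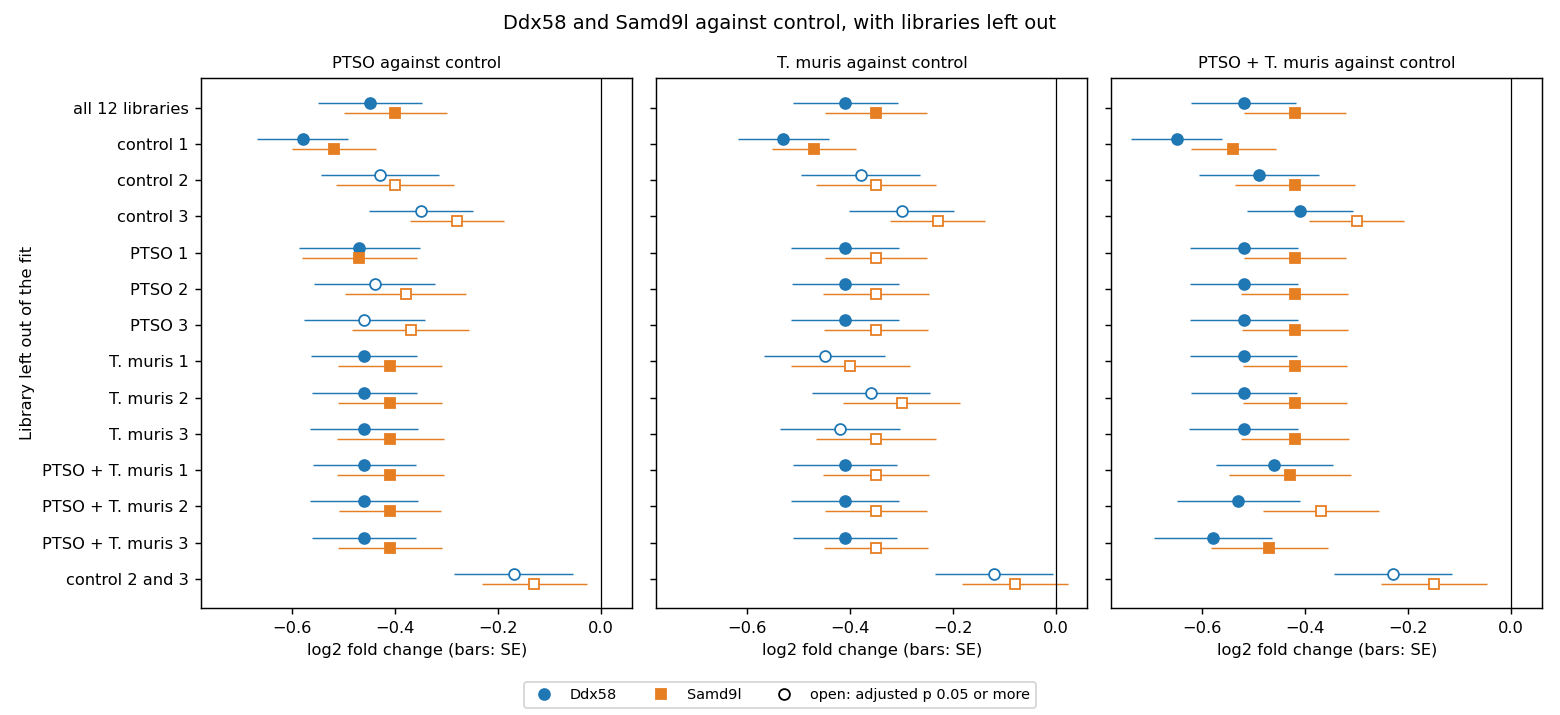
Log2 fold change with its SE for Ddx58 (circles) and Samd9l (squares) in the 3 comparisons against control, with all 12 libraries and with libraries left out; open symbols have an adjusted p of 0.05 or more. Ddx58 with both treatments stays called without any single library (-0.65 to -0.41), and every symbol in the last line, without control libraries 2 and 3, is open.

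The pair of control libraries was also high for most other listed genes. One of them was the highest of the 12 libraries for 20 of 34 (58.8%), which compares with 30.1% of all genes tested. The median deviation of the 34 genes from their own mean was 0.16 in control library 2 and 0.18 in control library 3 on the log2 scale, and 0 in control library 1. In the treated libraries it ran from -0.09 to 0.04. Leukocyte markers summed to 4.8 to 6.33 CPM in the control libraries and to 3.28 to 6.25 CPM with PTSO, 3.73 to 5.49 with T. muris and 3.59 to 4.72 with both. Most of this was Cd68, with means of 5.03, 4.2, 3.58 and 3.26 CPM in these groups, and it was not called. The part of leukocyte markers in the result was not tested. Epithelial markers summed to 8510 to 8760 CPM in control, 8250 to 8650 with PTSO, 8530 to 8630 with T. muris and 8520 to 8910 with both. With both, 2 of the 9 were called higher (Epcam and Krt18) and 2 lower (Cdh1 and Krt19) than in control, where 16.7% of all genes were called. Endothelial markers summed to 3.57 to 4.99 CPM in control and 2.6 to 3.51 with both, with Tek, the 1 tested, called lower. Fibroblast markers summed to 3.45 to 4.64 and 2.3 to 3.56 CPM, with Pdgfra, 1 of 3 tested, called lower. These marker calls were not examined without control libraries 2 and 3, and the part of these markers in the result was not tested either.

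**Figure D4:**
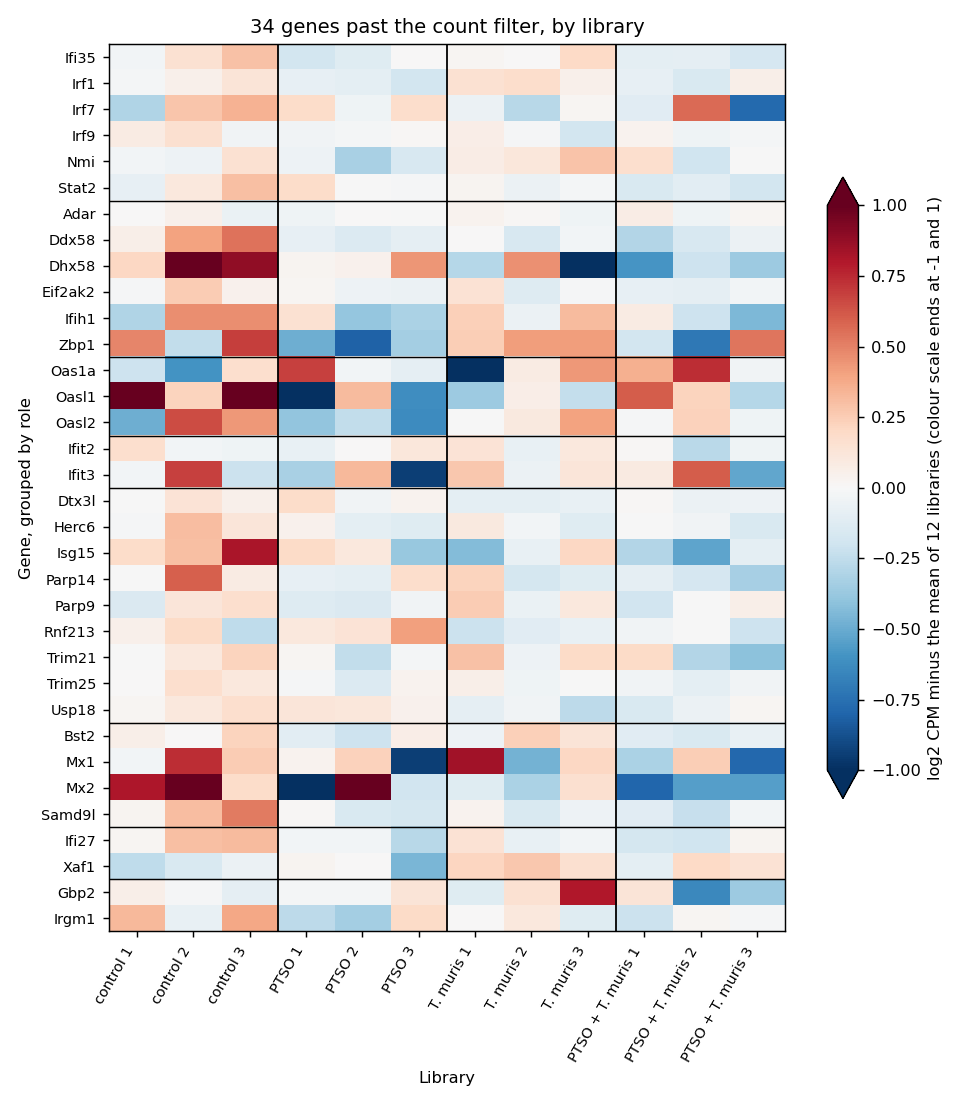
Log2 CPM minus the mean of 12 libraries for the 34 genes past the filter, grouped by role, with red above and blue below the mean and the colour scale ending at -1 and 1. Control libraries 2 and 3 are red for most genes (median deviations 0.16 and 0.18), and control library 1 is not (median 0).

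The comparison of PTSO + T. muris with T. muris asks what PTSO did where the antigens were present. The control libraries do not enter the difference, although in a fit of all 12 libraries they share in the estimate of spread behind its p-values. No listed gene was called, where 0.616% of all genes were. At an unadjusted p under 0.05 there were 2 in edgeR, Irf1 and Bst2, both lower, and DESeq2 called none. Irf1 (ENSMUSG00000018899), a transcription factor that drives many interferon targets, had 76.3, 77.5 and 71.2 CPM with T. muris and 64.9, 61.8 and 71.5 CPM with both. The highest library with both treatments lay just above the lowest with antigens alone. The log2 fold change was -0.19 ± 0.063 with adjusted p = 0.286, and 0.0776 without control libraries 2 and 3. Bst2 had 29.7, 36.3 and 33.6 CPM with T. muris and 28.4, 27.6 and 29.1 CPM with both, without overlap (-0.22 ± 0.0918, adjusted p = 0.44). Gbp2, a guanylate-binding protein gene, ranged from 1.46 to 2.83 CPM with T. muris and from 0.993 to 1.75 CPM with both (-0.58 ± 0.312, adjusted p = 0.608). For 4 of 34 genes the libraries did not overlap and those with both treatments were lower, against 9.74% of all genes. Below 0 were 25 of 34, with a median of -0.13.

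PTSO + T. muris against PTSO asks what the antigens did in cells given the compound. No listed gene was called by edgeR or DESeq2. Of all genes edgeR called 0, with 932 at an unadjusted p under 0.05, and DESeq2 called 15. At an unadjusted p under 0.05 edgeR gave 2 listed genes. Rnf213, a giant ubiquitin ligase, had 106, 109 and 131 CPM with PTSO and 96.4, 98.9 and 85.9 CPM with both (-0.30 ± 0.112, adjusted p = 0.779). Stat2 had 28.1, 24.6 and 24.4 CPM with PTSO and 22.2, 22.9 and 21.8 CPM with both (-0.20 ± 0.0949, adjusted p = 0.799). Neither gene's groups overlapped. Zbp1 ranged from 1.21 to 1.71 CPM with PTSO and from 1.3 to 3.2 CPM with both (0.51 ± 0.320, adjusted p = 0.84). The libraries did not overlap, with lower values for both treatments, for 4 of 34 genes, against 7.89% of all genes, and the median of the 34 was -0.02.

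Averaged over the cells without and with antigens, PTSO lowered Irf1 and Ddx58. These were the 2 of 34 genes called, a share close to the 6.51% of all genes. Irf1 had 67.7, 71 and 75 CPM in control and 64.8, 64.1 and 60.3 CPM with PTSO alone, and its levels with the antigens are given above. With all 12 libraries Irf1 was at -0.18 ± 0.0627 without antigens and -0.19 ± 0.063 with them, and the average of -0.18 ± 0.0445 had adjusted p = 0.0177 in edgeR. Without control libraries 2 and 3 the average was -0.14 and no longer called. The value with antigens uses no control library, so leaving these out could not test it. The call was also lost, at adjusted p of 0.051 to 0.0629, without PTSO library 3, T. muris library 1 or 2, or PTSO + T. muris library 1 or 2. For Ddx58 the average was -0.28 ± 0.0724 (adjusted p = 0.0228), made up of -0.45 without antigens and -0.11 with them, and without control libraries 2 and 3 it was -0.14 (adjusted p = 0.409). The Ddx58 call ended in 7 of the 12 fits without a single library (adjusted p = 0.0536 to 0.0745), among them those without control library 2 or 3.

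The interaction subtracts the PTSO effect in cells without antigens from that in cells with them. It was called for none of the 34 genes by edgeR, and for 0 of all genes, 1181 of which had an unadjusted p under 0.05, while DESeq2 called 4 of all genes. Unadjusted p under 0.05 was reached by Ddx58 (0.34 ± 0.145), Samd9l (0.33 ± 0.142) and Oasl1 (1.91 ± 0.815), each with adjusted p = 0.644. DESeq2 called none of the 34. Across the 34 genes, 23 (67.6%) had a PTSO effect below 0 in both backgrounds, against 30% of all genes. The comparisons behind this count share no library, but PTSO against control rests on control libraries 2 and 3. Without these its median was -0.06 instead of -0.2, with 23 instead of 30 of the 34 below 0. The count over both backgrounds was not made without them.

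**Figure D5:**
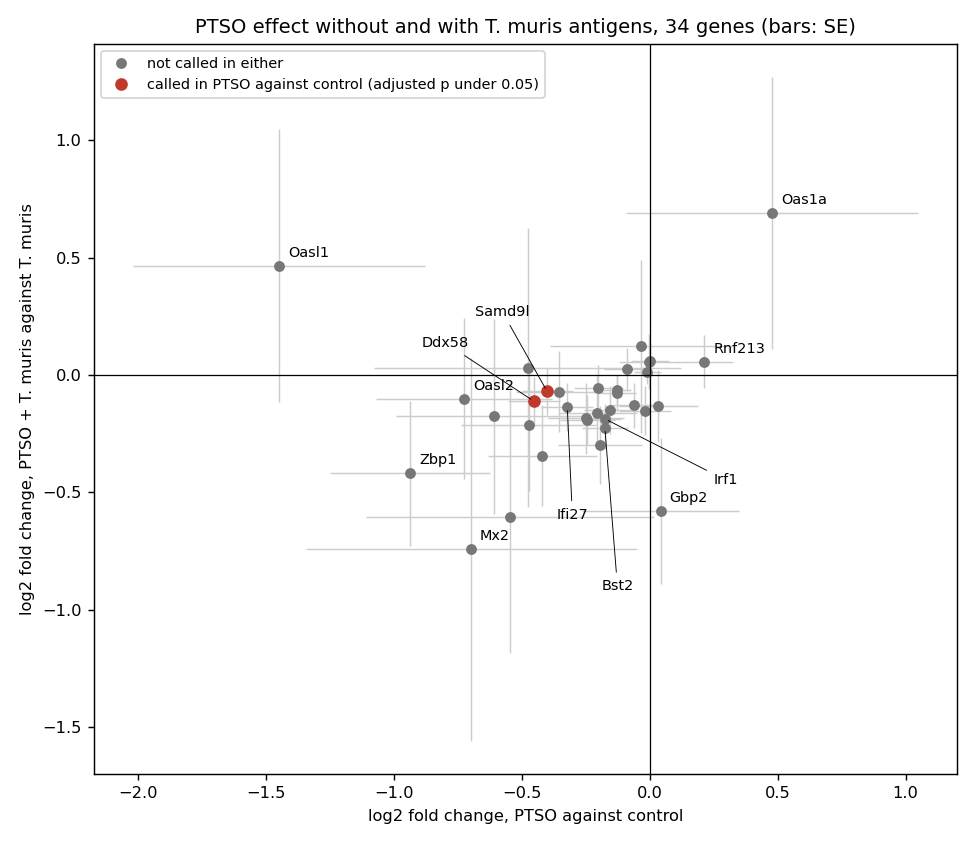
Log2 fold change of the 34 genes for PTSO against control (horizontal) and for PTSO + T. muris against T. muris (vertical), with SE bars; red points were called in the horizontal comparison. With all 12 libraries, 23 of the points lie in the lower left, and Irf1 lies at -0.18 and -0.19. Without control libraries 2 and 3 the median on the horizontal axis was -0.06 instead of -0.2.

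By role, 2 of the 4 genes called against control with both treatments were sensors, Ddx58 and Dhx58, where 16.7% of all genes were called. The other tested sensors, Ifih1, Eif2ak2, Adar and Zbp1, were not called. Without control libraries 2 and 3, Ddx58 was at -0.23 and Dhx58 at -0.62. Ifih1, the third RIG-I-like receptor, ranged from 4.64 to 7.95 CPM in control and from 4.17 to 6.08 CPM with both (-0.43 ± 0.215, adjusted p = 0.184). Adar had group means of 78.8, 78.2, 79.1 and 79.9 CPM in control, PTSO, T. muris and both. Eif2ak2 was highest in control library 2 (66.3 CPM) and otherwise between 51 and 61.6 CPM. None of the genes of the ubiquitin, ISG15 and ADP-ribosylation group was called by edgeR with the filter in any of the 7 comparisons, whereas DESeq2 called Isg15 and Parp14 with both treatments against control. Trim25 ranged from 120 to 148 CPM, Usp18, the protease that removes ISG15, from 8.49 to 11.5 CPM, and Parp9 and its partner Dtx3l from 20.7 to 28.2 and from 30.7 to 37.3 CPM. Ifit2 was even across groups, with means of 18.7, 18.4, 19 and 17.1 CPM. Of the other STAT and IRF genes, Irf9 ranged from 16.9 to 21.5 CPM, Irf7 from 0.661 to 1.79 CPM and Nmi, a STAT-binding protein gene, from 4.82 to 7.41 CPM.

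Calls fell on genes with and without ISRE letters. Of 26 tested genes with a promoter at hand, 11 held the letters and 15 did not. In each of the comparisons of PTSO, T. muris and both with control, each set had 1 gene called. These were the same genes each time, Ddx58 with the letters and Samd9l without. Ifi27 and Dhx58, also called with both treatments, had no promoter at hand. In PTSO against control the medians were -0.20 with the letters and -0.13 without, and in T. muris against control they were -0.08 and -0.11.

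Upstream of the listed genes, interferon transcripts were close to absent. None of 10 ligand genes passed the filter, and Ifng, Ifna2, Ifna4 and Ifna5 had no count in any library. Ifnb1, the interferon that many cells make first, had 2 counts, both in PTSO + T. muris library 2. The control libraries had no count of any of the 10. Ifne, an epithelial interferon, had 22 counts in all, 12 of them in PTSO library 2, which also held all 13 counts of Ifnk and all 10 of Ifnl3.

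Of 11 receptor and JAK-STAT genes 10 were tested. Ifnar1, a chain of the type I receptor, was the 1 called in PTSO against control (-0.24 ± 0.067, edgeR adjusted p = 0.0468) and in T. muris against control (-0.28 ± 0.0673, adjusted p = 0.0251). The shares of all genes called in these 2 comparisons were 5.25% and 6.35%. With both treatments 7 of 10 were called against control, where 16.7% of all genes were, all lower, among them Ifnar1 (135 ± 15.4 against 107 ± 7.56 CPM, SD, n = 3), Ifngr2 of the interferon gamma receptor (92.9 ± 17.9 against 61.5 ± 6.92 CPM), Ifnar2 and Stat3. Without control libraries 2 and 3, none was called in these comparisons, and without control library 2 alone or control library 3 alone Ifnar1 was the 1 called with both treatments. Ifnlr1, which confers response to type III interferon, had 36 counts in 12 libraries. Of the 10 tested nucleic acid sensing genes upstream of interferon, none was called in any comparison.

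With PTSO averaged over backgrounds, 2 of the 9 tested negative regulators changed, in opposite directions, where 6.51% of all genes were called. Socs3, an inhibitor of JAK signalling, rose (0.16 ± 0.0373, adjusted p = 0.0111 in edgeR), and Samhd1, which depletes nucleotides, fell (-0.15 ± 0.0359, adjusted p = 0.0152). Both held without control libraries 2 and 3 (adjusted p = 0.0367 and 0.00108). The Samhd1 call ended without T. muris library 3 or PTSO + T. muris library 2 (adjusted p = 0.0559 and 0.0558).

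Among 25 tested of 40 other interferon-induced genes, Uba7 stood out. In PTSO against control and in T. muris against control 1 of the 25 was called, where 5.25% and 6.35% of all genes were. With PTSO averaged over backgrounds 2 were called, where 6.51% of all genes were. Uba7, the activating enzyme for ISG15, had 14.2 ± 2.42 CPM in control, 8.52 ± 0.715 with PTSO, 11.8 ± 0.807 with T. muris and 8.22 ± 0.291 with both (SD, n = 3). It was the 1 called in PTSO against control (-0.74 ± 0.133, adjusted p = 0.00401), and without control libraries 2 and 3 that call ended (-0.43, adjusted p = 0.521). Averaged over backgrounds PTSO lowered it by a log2 fold change of -0.62 ± 0.0946 (adjusted p = 0.000452), a call held by each fit without a single library and without control libraries 2 and 3 together (-0.47, adjusted p = 0.00822). In PTSO + T. muris against T. muris it was at -0.51 ± 0.135 (adjusted p = 0.108 in edgeR), and DESeq2 called it. Tor3a, an ATPase gene, was also lower on average (-0.23 ± 0.069, adjusted p = 0.0475), a call lost in 9 of 12 fits without a single library and without control libraries 2 and 3 (adjusted p = 0.184). Slfn2 was the 1 called in T. muris against control (-0.49 ± 0.140, adjusted p = 0.0424; -0.21 and adjusted p = 0.998 without control libraries 2 and 3). With both treatments 6 of 25 were called against control, where 16.7% of all genes were, all lower, and none without control libraries 2 and 3.

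The GTPases and chemokines induced by interferon gamma were mostly near the floor, with 6 of 20 tested. Gbp9 and Gbp8, guanylate-binding protein genes related to the listed Gbp2 and Gbp3, were called lower in PTSO against control (-0.44 ± 0.0909 and -0.60 ± 0.155, adjusted p = 0.00927 and 0.0289 in edgeR). These were 2 of the 6, where 5.25% of all genes were called. The same 2 were called with PTSO averaged over backgrounds, where 6.51% of all genes were. Without control libraries 2 and 3 they were at -0.26 (adjusted p = 0.561) and -0.37 (adjusted p = 0.775), and leaving out control library 2, control library 3, PTSO library 2 or PTSO library 3 alone also ended both calls, with adjusted p up to 0.0687 for Gbp9 and 0.16 for Gbp8. Gbp9 had 39.7 ± 4.18 CPM in control, 29.2 ± 2.94 with PTSO, 34.6 ± 1.14 with T. muris and 26.1 ± 1.88 with both (SD, n = 3). It was also the 1 called in PTSO + T. muris against T. muris (-0.41 ± 0.0925, adjusted p = 0.0487 in edgeR), where 0.616% of all genes were. Leaving out a single library there gave adjusted p from 0.00277 to 0.246 with the value between -0.46 and -0.35, and 9 of the 12 such fits ended the call. Averaged over backgrounds, Gbp9 was at -0.43 ± 0.0648 (adjusted p = 0.000472), called in each fit without a single library, and at -0.33 (adjusted p = 0.00325) without control libraries 2 and 3. Gbp8 was at -0.58 ± 0.112 on average (adjusted p = 0.00359) and at -0.46 (adjusted p = 0.0661) without them. With both treatments 3 of 6 were called lower than in control, where 16.7% of all genes were called: Gbp9, Gbp8 and Irgm2. None passed without control libraries 2 and 3. Cxcl10, a chemokine that attracts T cells, had 74 counts over 12 libraries, and Cxcl9 and Cxcl11 had none.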

How the data were processed

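RNA-seq of 12 CMT-93 libraries was used, 3 in each of 4 groups set by the treatment label. The authors deposited raw read counts per gene, whole numbers with no normalization, used here as deposited. The mm39 build, HISAT and DESeq2 are named without version or role, per the submitters' processing notes. Neither the counting program nor the annotation and strand setting is given there. Unannotated loci (0.351% of counts) stayed in the tests.

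Genes past filterByExpr (15267, 99.93% of counts) were scaled by TMM and fitted together with edgeR 4.0.16 (quasi-likelihood, robust) in R 4.3.3, with 7 contrasts and Benjamini-Hochberg adjustment over all genes tested. The SE is the log2 fold change divided by the square root of F. Lengths are exon unions of a GENCODE annotation on an earlier mouse build, so no gene coordinates are given; promoters are RefSeq sequences on GRCm38.p6. Tests were checked on simulated data. DESeq2 1.42.0, other scaling and filtering, a replicate block and left-out libraries were alternatives. Figures were drawn with matplotlib 3.10.9.

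The genes, lists and tests were chosen with earlier results of these data known. The naming rule takes every listed gene called in any comparison, the 3 smallest p-values in each of the 4 comparisons of groups that differ by a single treatment, and up to 4 called genes per pathway list; others named are examples of their role, and Xaf1, Isg15, Parp14 and Ifit1 were picked after their values were seen.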

Additional observations from a re-analysis of the deposited data

How the results depend on the processing

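For the genes taken by the naming rule, in the comparisons that took them, no direction reversed under any alternative. Genes named for other reasons were not part of this check. In T. muris against control, 25 of 34 genes were below 0 with all 12 libraries and 15 without control libraries 2 and 3. DESeq2's size factors in edgeR gave the same calls among the 34 genes. With no filter on low counts, 5 of 41 listed genes were called in PTSO against control, where 5.92% of all genes were. Of these 4 were lower and Rnf213 was higher (0.21, edgeR adjusted p = 0.0146). The number was 4 with DESeq2 (10.1% of all genes) and 0 when the model held only the groups compared (0.314%). When single libraries were left out the number was 0 to 9, the 9 without control library 1 (23.1% of all genes). Without control libraries 2 and 3 the median of the 34 was -0.06. In T. muris against control the number called was 0 with only the groups compared (0.00689% of all genes). Without single libraries the number was 0 to 4, the 4 without control library 1 (25.7% of all genes). The median was 0.01 without control libraries 2 and 3. In PTSO + T. muris against PTSO, no filter gave 1 of 41, Rnf213 (edgeR adjusted p = 0.00453), where 0.144% of all genes were called. In PTSO + T. muris against control the number was 7 with DESeq2 (20% of all genes) and 1 with only the groups compared (5.93%). Without single libraries the number was 1 to 12, the 12 without control library 1 (30.5% of all genes). The median was -0.09 without control libraries 2 and 3. Averaged over backgrounds, PTSO gave 7 of 41 with no filter (6 lower and Rnf213 higher), where 5.6% of all genes were called. DESeq2 gave 6 (9.67% of all genes). Without single libraries the number was 0 to 11, the 11 without control library 1 (20.2% of all genes). The median was -0.1 without control libraries 2 and 3. The interaction gave 0 to 2, the upper value without control library 1 (8.14% of all genes). PTSO + T. muris against T. muris gave 0 in each fit. The cause was not tested; the fits without libraries have fewer samples. With a replicate block the counts of listed genes called, of 34, were 2, 2, 0, 0, 4, 3 and 0 in the order of the comparisons (PTSO, T. muris, both against T. muris, both against PTSO, both against control, average, interaction). The shares of all genes called were 5.92%, 8.16%, 0.57%, 0%, 17.5%, 6.73% and 0.00655% in the same order. Same-numbered libraries of different groups correlated at -0.06 to 0.1 and differently numbered ones at -0.09 to 0.06. None of the 18 same-number pairs was over 0.1, so the numbers were not taken as pairs. Over all genes the calls in PTSO against control were 802, and 1728 with no filter, 1544 with DESeq2 and 46 with only the groups compared. Genes under about 1 CPM rest on few reads, and their ratios are imprecise.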
